A study of Arabidopsis thaliana with 6 samples.

Results

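The 21 loci described here are those named AT2G07660 to AT2G07790 without AT2G07690 (MCM5), among 29670 loci with array values. The name range was meant to cover the copy of the mitochondrial genome that lies beside the centromere of chromosome 2 in Arabidopsis thaliana, together with the loci at its edges. RNA of epiRIL12 was compared with RNA of the accession Col, from untreated plants 14 days old grown with 16 hours of light, on 3 arrays per genotype. An epiRIL (epigenetic recombinant inbred line) descends from a cross of a wild-type plant with a DNA methylation mutant, here of the enzyme gene MET1, and carries a mosaic of parental chromosome segments. The mutation of the founder is background knowledge and is not in the labels. epiRIL12 is 1 such line, and the labels do not say which of its segments came from the mutant parent or whether the 3 samples of a genotype were grown apart. The p-values therefore measure the spread between these samples, which may be technical. As tissue the labels give rosette leaves in one field and whole seedlings in another.

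Mitochondria of plants keep a genome of their own, which encodes subunits of the respiratory chain and of the ATP synthase, proteins that mature cytochrome c, ribosomal proteins, ribosomal RNA and transfer RNA. Copies of organelle DNA have entered plant nuclear chromosomes repeatedly. The one on chromosome 2 of the Col accession is large and almost identical in sequence to the mitochondrial genome. Nuclear silencing marks such as DNA methylation act on chromosomal DNA around centromeres, while the genome inside mitochondria is transcribed by its own RNA polymerases. Ribosomal RNA was depleted and the rest copied with random primers, so RNA without a poly(A) tail, which includes mitochondrial RNA, was not removed. Where a probe matches both copies, RNA from the mitochondrion and RNA from the chromosome cannot be told apart. Probe sequences were not used here, and which probes do so was not tested. No locus named ATMG or ATCG, the names of genes of the mitochondrial and chloroplast genomes, was among the loci with values (0 of each).

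By gene order, most of the 21 loci lay outside the stretch that carries the marks of the copied mitochondrial DNA. In the order of the RefSeq gene table (assembly TAIR10.1), 7 loci lay between AT2G07660 and the transporter gene ABCC13 (AT2G07680), AT2G07660 lay at the low edge, and ABCC13 and 12 others made up 13 loci at the high edge. The stretch between AT2G07660 and ABCC13 held 187 annotated loci, among them 23 tRNA genes. Runs of 187 annotated loci on either side of it held 0 tRNA genes each. The stretch was taken as the copied DNA from this gene content and from the name range, and its ends and the origin of each locus were not tested by sequence. Locus numbers in this region do not follow chromosome order, and the name range holds both kinds of locus. Loci of the stretch had array values far less often than their neighbours: 7 of 187 in the stretch, against 160 of 187 in the run on the low side and 148 of 187 in the run on the high side. None of the 94 protein-coding loci of the stretch was analysed here (0 of 94), against 38 of 46 on the low side and 17 of 28 on the high side. The loci with values were 3 of 19 pseudogenes and 4 of 27 transcribed pseudogenes.

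**Figure D1:**
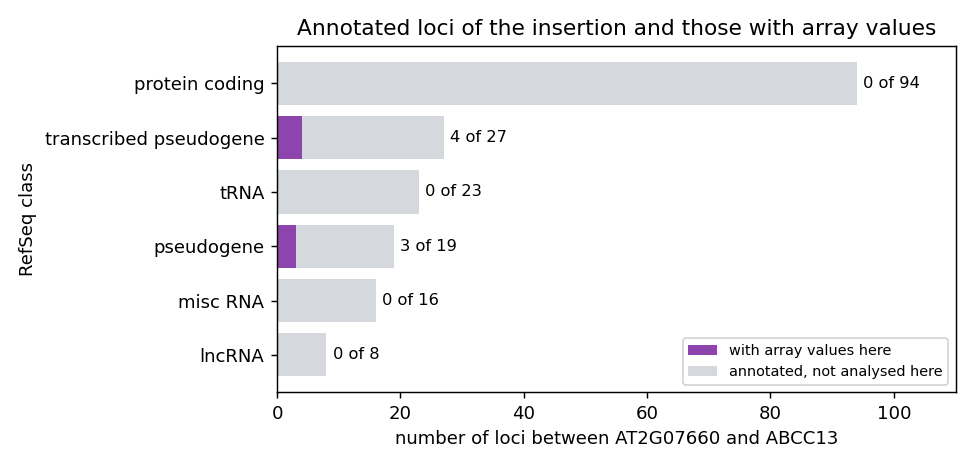
Number of loci annotated between AT2G07660 and ABCC13 by RefSeq class (bars, horizontal axis), with the part that has array values in purple. Purple is seen in the pseudogene and transcribed pseudogene bars, with 3 of 19 and 4 of 27 loci, and in no other class.

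The 6 arrays had medians between 6.80 and 6.84 and lower quartiles between 4.71 and 4.90 on the log2 scale. Leaf genes fixed as markers, such as that of the Rubisco small subunit RBCS1A, had group means from 13.7 to 15.4 in both genotypes. Markers of root, pollen and seed had group means from 4.13 to 6.52, and none of these marker genes passed the test used here. In whole tissue, fewer cells of a type and less RNA per cell cannot be told apart. No background level was given for the arrays. Values of different loci come from different probes, so their order is one of array values and not of RNA amounts.

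The stretch between AT2G07660 and ABCC13 held 4 transcribed pseudogenes with high array values in both genotypes, and none of its 7 loci passed the test. Over all loci 0.974% passed, and 5.72% of the pseudogene classes, to which all 7 belong, rose. A count of 0 among 7 loci does not set the stretch apart from these shares. AT2G07712 read 11.62, 11.51 and 11.41 in epiRIL12 and 11.30, 11.12 and 11.15 in Col. All epiRIL12 values lay above all Col values, by a small margin. The log2 difference, epiRIL12 minus Col here and throughout, was 0.32 with a standard error (SE) of 0.10, and the adjusted p was 0.511 (unadjusted 0.0172). AT2G07717 read 10.83, 10.90 and 10.79 in epiRIL12 and 10.69, 10.61 and 10.84 in Col. Its groups overlapped, and the log2 difference was 0.13 (95% interval -0.11 to 0.36). AT2G07709 read 10.34, 10.61 and 10.72 in epiRIL12 and 10.69, 10.37 and 10.76 in Col. The genotypes covered nearly the same range, with a log2 difference of -0.05 (interval -0.41 to 0.32). AT2G07711 read 10.20, 10.22 and 10.35 in epiRIL12 and 10.18, 10.28 and 10.13 in Col, a log2 difference of 0.06 (interval -0.16 to 0.29). Intervals here are unadjusted.

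Those 4 loci stood apart from most of their class in array value. Among the 4145 loci of both pseudogene classes they held ranks 12, 17, 24 and 31 in epiRIL12 and ranks 3, 6, 8 and 11 in Col, in the order AT2G07712, AT2G07717, AT2G07709 and AT2G07711. The later ranks in epiRIL12 do not stand for lower values: of the 4 loci, only AT2G07709 had a difference below 0 (-0.05). Of the 4145 loci, 237 rose and 6 fell. Over all 583 transcribed pseudogenes the median level was 4.20 in epiRIL12 and 4.26 in Col, under the lowest array quartile given above. The mean of the 4 loci was 10.75, 10.81 and 10.82 on the epiRIL12 arrays and 10.71, 10.60 and 10.72 on the Col arrays. The upper bound of the interval was highest for AT2G07712, at a log2 difference of 0.56, so changes of size 1 in array value lay outside the intervals of all 4. Where a probe also matches mitochondrial RNA, these intervals do not bound a change in RNA from the chromosome alone. Transcribed pseudogenes as a class rarely rose: 1 of 583 did, 0.172%. AT2G07709 and AT2G07712 overlap the annotated loci AT2G07641 and AT2G07642, and AT2G07717 overlaps the protein-coding AT2G07718. Of the loci described below, AT2G07682 overlaps AT2G07626, and ABCC13 overlaps AT2G05405 and AT2G05415. The labelled target was double-stranded and kept no strand, so RNA of overlapping loci cannot be told apart.

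The other 3 loci of the stretch are annotated as plain pseudogenes and read lower. AT2G07682 read 7.73, 7.61 and 8.05 in epiRIL12 and 7.76, 7.16 and 7.13 in Col. The highest Col value lay inside the epiRIL12 range, and the log2 difference of 0.45 (SE 0.21) did not pass the test (adjusted p = 0.771). AT2G07744, the first locus of the stretch on the low side, read 4.02, 3.63 and 3.56 in epiRIL12 and 3.76, 3.79 and 3.64 in Col. Every value lay under 4.71, the lowest of the 6 lower quartiles, with a log2 difference of 0.01.

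AT2G07697 varied more between the epiRIL12 samples than nearly any other locus. It read 6.36, 9.01 and 8.99 in epiRIL12 and 7.22, 7.83 and 7.69 in Col. The first epiRIL12 array lay below all Col values and the other epiRIL12 arrays lay above them. The SD over the epiRIL12 arrays was 1.53, rank 12 of 29670 loci, against a median SD of 0.15 over all loci; the SD over the Col arrays was 0.32. The other 20 loci had SDs of 0.06 to 0.31 in epiRIL12 and, with AT2G07697 included, of 0.03 to 0.56 in Col. On the first epiRIL12 array AT2G07697 lay 2.65 below the mean of the other epiRIL12 arrays (log2 difference -2.65), while the same deviation ran from -0.41 to 0.43 over the other 20 loci (median -0.02). No other locus of the 29670 had so low a deviation on that array (1 locus, AT2G07697 itself). Without epiRIL12 replicate 1 its log2 difference was 1.42 and its adjusted p 0.0620, against 0.54 (SE 0.71, adjusted p = 0.970) with all arrays.

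**Figure D2:**
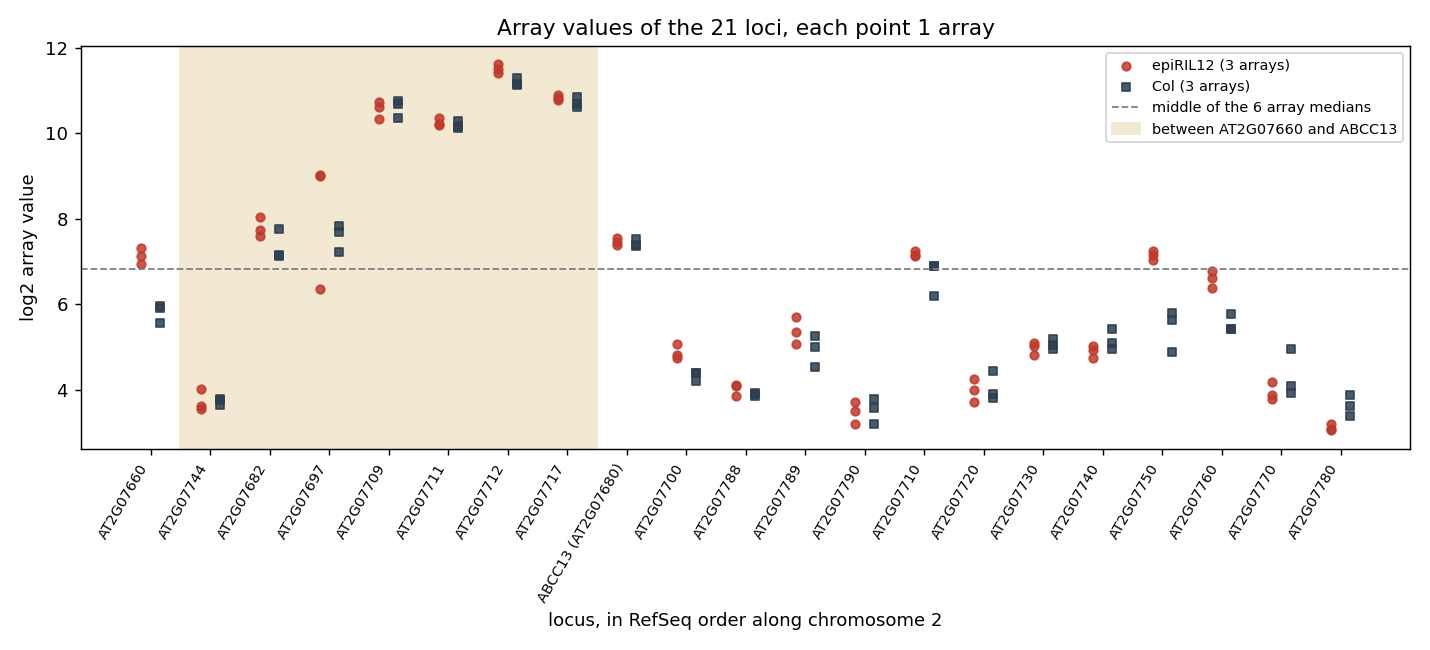
Log2 array value (vertical axis) of each of the 21 loci in RefSeq order (horizontal axis), 1 point per array, epiRIL12 in red to the left of Col in dark blue. The 4 transcribed pseudogenes of the shaded stretch lie between 10.1 and 11.6 in both genotypes, AT2G07697 has 1 epiRIL12 value below and 2 above its Col values, and AT2G07660, AT2G07750 and AT2G07760 show epiRIL12 above Col.

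The loci that rose in epiRIL12 lay at the edges. Of the 21 loci, 3 rose, 0 fell and 18 had no call (limma, Benjamini-Hochberg adjusted p under 0.05 over all loci), where 0.89% of all 29670 loci rose and 0.0843% fell. AT2G07660, a pseudogene next to the stretch on the low side, read 7.14, 6.95 and 7.33 in epiRIL12 and 5.96, 5.92 and 5.57 in Col. It rose 2.50-fold (log2 1.32, SE 0.15, adjusted p = 0.0104), and every epiRIL12 value exceeded every Col value by close to a log2 unit or more. AT2G07750, annotated as protein-coding at the high edge, read 7.26, 7.03 and 7.16 in epiRIL12 and 4.87, 5.79 and 5.63 in Col. It rose 3.29-fold (log2 1.72, SE 0.24, adjusted p = 0.0272). AT2G07760, its next locus and also protein-coding, read 6.39, 6.77 and 6.61 in epiRIL12 and 5.42, 5.41 and 5.78 in Col, a 2.08-fold rise (log2 1.06, SE 0.15, adjusted p = 0.0300). The RefSeq symbol of each of the 3 is its locus name, and what their products do was not looked up. Col means of these loci, 5.43 to 5.81, lay under the array medians, so the folds are differences of array values.

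These 3 calls rest on few arrays. At all 3 loci every epiRIL12 value exceeded every Col value, so leaving out 1 array could not turn the direction. Without epiRIL12 replicate 1 no locus passed (0 of 21; adjusted p = 0.0616, 0.137 and 0.0530 for AT2G07660, AT2G07750 and AT2G07760). Without epiRIL12 replicate 2 or without epiRIL12 replicate 3, AT2G07660 alone passed (1 of 21). Fits on fewer arrays have less precision, and the share of all loci that passed in each is not given here. Whether these loci lost their calls more readily than other loci was therefore not tested. Without Col replicate 1 or Col replicate 2, AT2G07760 lost its call (adjusted p = 0.134 and 0.130), and without Col replicate 3 AT2G07750 did (0.0840), which left 2 of 21 each time. In the authors' deposited table, with its p-values adjusted over all loci, none of the 21 passed (0 of 21), where 0.465% of all loci did. With each array left out the log2 difference stayed within 1.20 to 1.42 for AT2G07660, 1.44 to 1.90 for AT2G07750 and 0.97 to 1.18 for AT2G07760.

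Among the other loci of the high edge, 2 pseudogenes had epiRIL12 values above all Col values without passing the test. Of the 4145 loci of both pseudogene classes, 612 had all epiRIL12 values above all Col values and 232 had all below. AT2G07700 read 4.82, 4.75 and 5.07 in epiRIL12 and 4.40, 4.20 and 4.39 in Col (log2 difference 0.55, SE 0.12, adjusted p = 0.190). AT2G07710 read 7.16, 7.25 and 7.14 in epiRIL12 and 6.20, 6.91 and 6.91 in Col (log2 difference 0.51, SE 0.20, adjusted p = 0.675). Its Col values were spread by 1 low array. AT2G07780, the last locus on that side, was the one locus with all epiRIL12 values below all Col values, at 3.09, 3.21 and 3.05 in epiRIL12 against 3.87, 3.62 and 3.40 in Col (log2 difference -0.51, SE 0.14, adjusted p = 0.353). All its values were under the lowest of the 6 lower quartiles.

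ABCC13, which encodes an ATP-binding cassette transporter and borders the stretch, read 7.56, 7.39 and 7.45 in epiRIL12 and 7.36, 7.53 and 7.40 in Col. Its groups overlapped, with a log2 difference of 0.04 (interval -0.19 to 0.27). The remaining 7 pseudogenes of the high edge, AT2G07720, AT2G07730, AT2G07740, AT2G07770, AT2G07788, AT2G07789 and AT2G07790, overlapped between genotypes. Their log2 differences ran from -0.37 at AT2G07770 to 0.44 at AT2G07789. MCM5, a DNA replication licensing gene that shares the name range and lies next to ABCC13, read 8.65, 8.61 and 8.67 in epiRIL12 and 8.34, 8.58 and 8.43 in Col (log2 difference 0.20, SE 0.10, adjusted p = 0.803).

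Over all 21 loci the median log2 difference was 0.13, against -0.02 over all 29670 loci. Differences above 0 were found at 14 of the 21 loci, against 43.4% of all loci, and at 7 below 0. By place, 6 of the 7 loci of the stretch and 7 of the 13 at the high edge were above 0. All epiRIL12 values lay above all Col values at 6 of 21 loci and below at 1, against 5.19% and 6.89% of all loci. Of the 21, 7 had an unadjusted p under 0.05, against 7.04% of all loci. Counted by class, 1 of 18 pseudogene-class loci rose (AT2G07660), where 5.72% of the 4145 loci of these classes did. All epiRIL12 values lay above all Col values at 4 of these 18 and below at 1, against 612 and 232 of the 4145. An unadjusted p under 0.05 in limma was found at 5 of the 18, against 729 of the 4145. Differences above 0 were found at 11 of the 18, against 2139 of the 4145. The shares over all loci are thus lower than those of the class of most of the 21 loci. The 3 protein-coding loci were ABCC13, AT2G07750 and AT2G07760, and 2 of them rose, where 0.107% of all protein-coding loci did. Neighbouring loci are not independent, and none of these counts was tested.

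Outside the name range, 1 of the nearest 10 loci with values rose on each side, against 0.89% of all loci and 5.72% of the pseudogene classes. On the low side it was AT2G07620, which read 5.24, 4.86 and 5.48 in epiRIL12 and 3.95, 3.86 and 3.91 in Col (log2 difference 1.29, SE 0.16, adjusted p = 0.0166). It lost its call without epiRIL12 replicate 1 or any 1 of the Col arrays (adjusted p 0.0738 to 0.0897), and without both arrays numbered 3 (0.189). AT2G07650, adjacent to AT2G07660, read 6.58, 6.31 and 6.85 in epiRIL12 and 5.73, 5.72 and 5.66 in Col, with no overlap (log2 difference 0.88, SE 0.15, adjusted p = 0.0672). It passed without epiRIL12 replicate 2 (0.0371), at a threshold of 0.10, and with the lowest 25% of loci left out (0.0445). That filter removed AT2G07620. AT2G07630, with values spread more widely, also did not overlap (log2 difference 1.41, SE 0.36, adjusted p = 0.308). On the high side it was AT2G09187, at 7.15, 7.27 and 6.92 in epiRIL12 against 5.20, 4.67 and 4.71 in Col (log2 difference 2.25, SE 0.17, adjusted p = 0.00141). By name AT2G07791 belongs to this side, but in RefSeq order it lies among the loci of the high edge, and its groups overlapped (log2 difference 0.35).

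**Figure D3:**
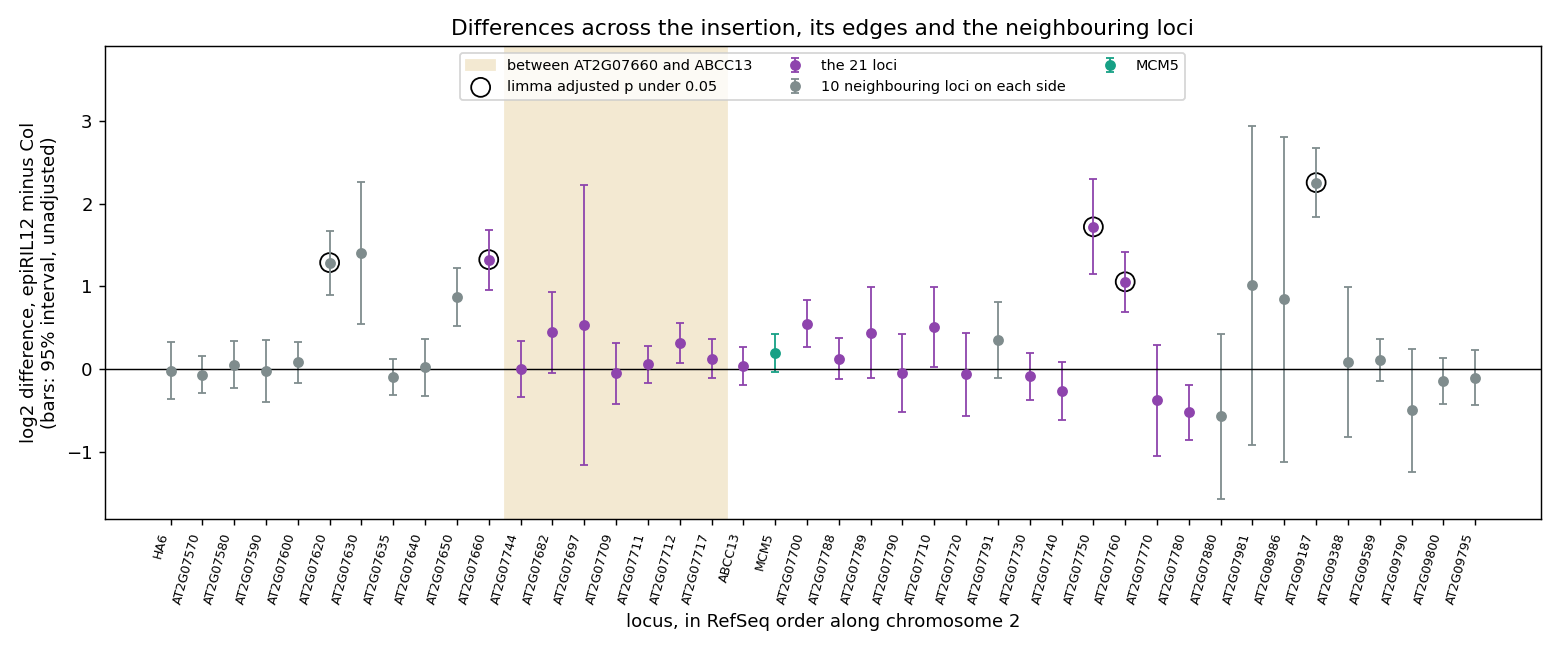
Log2 difference, epiRIL12 minus Col, with its unadjusted 95% interval (vertical axis) for the 21 loci, MCM5 and 10 neighbouring loci on each side in RefSeq order (horizontal axis). Circled loci passed the test: AT2G07620 and AT2G07660 on the low side, AT2G07750, AT2G07760 and AT2G09187 on the high side, and none in the shaded stretch.

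A pair of loci next to each other among those with values, beyond the high edge, also differed between arrays of epiRIL12. AT2G07981 read 8.71, 7.86 and 11.21 in epiRIL12 and 7.86, 8.48 and 8.40 in Col, and AT2G08986 read 7.66, 6.07 and 9.63 in epiRIL12 and 6.56, 7.01 and 7.26 in Col. By SD over the epiRIL12 arrays they held ranks 4 and 3 of 29670. Here the third epiRIL12 array was high and the second low, unlike AT2G07697, where the first was low. Without epiRIL12 replicate 3 the log2 difference was 0.04 for AT2G07981 and -0.08 for AT2G08986, against 1.01 and 0.84 with all arrays.

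**Figure D4:**
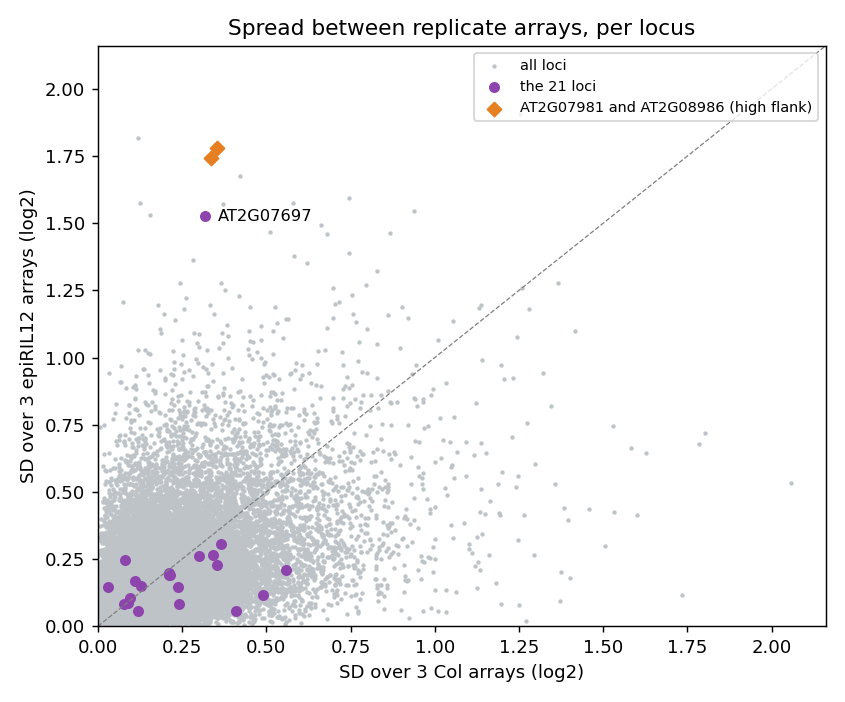
SD of the log2 values over the 3 epiRIL12 arrays (vertical axis) against the SD over the 3 Col arrays (horizontal axis) for every locus, with the 21 loci in purple. AT2G07697 (epiRIL12 SD 1.53) lies far above the other 20 loci, and AT2G07981 and AT2G08986 (orange) lie higher still.

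Nuclear genes that act in mitochondria were set beside the stretch. The 3 lists had 43 entries with array values, of which 27 have their list name in RefSeq and are named here. None of the 43 passed the limma test in either direction (0 of 43, where 0.974% of all loci passed). An unadjusted p under 0.05 was found at 0 of the 27 and at 1 of the other 16, against 7.04% of all loci. That locus was AT2G21640, entered in the stress list, at 6.78, 6.71 and 6.79 in epiRIL12 and 7.23, 6.96 and 7.33 in Col (log2 difference -0.41, SE 0.12, unadjusted p = 0.0116, adjusted p = 0.421). All its epiRIL12 values lay below its Col values. Of 13 named genes for mitochondrial DNA maintenance and RNA processing, 4 were above 0 and 9 below (median log2 difference -0.04). MSH1, which limits rearrangement of organelle genomes, stood at 7.30 ± 0.10 in epiRIL12 and 7.36 ± 0.12 in Col (SD, n = 3 each). The recombinase gene RECA2 had the lowest difference of the list (-0.23, SE 0.13). OSB1, whose product binds single-stranded organelle DNA, had the highest among the named genes (0.15, SE 0.13), and the entry AT1G74350 stood slightly above it (0.17, SE 0.12).

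Of 7 named genes for nuclear-encoded respiratory chain and ATP synthase proteins, 6 were above 0 (median log2 difference 0.06). Over all 15 entries of this list, 13 were above 0 and 2 below (median 0.08), where 43.4% of all loci were above 0. Some entries were listed as genes for the same protein, such as AT5G08670, AT5G08680 and AT5G08690, so the entries are not independent. Their median level in epiRIL12 was 11.32, against 6.82 over all loci, so the share over all loci is not one at a like level. The count was not tested. CYTC-1, a cytochrome c gene, stood at 11.55 ± 0.04 in epiRIL12 and 11.39 ± 0.05 in Col (SD, n = 3 each, log2 difference 0.15, SE 0.08). CYTC-2 had the lowest difference (-0.15, SE 0.12). The entry AT5G13430 stood slightly above CYTC-1 in difference (0.19, SE 0.09, limma adjusted p = 0.784), with all epiRIL12 values above all Col values. Of 7 named genes that respond to mitochondrial stress, 6 were below 0 (median log2 difference -0.06). AOX1A, the alternative oxidase gene used as a marker of that response, stood at 8.12 ± 0.18 in epiRIL12 and 8.27 ± 0.14 in Col. Among these 7, AOX1D had the highest difference (0.16, SE 0.13) and the sulfotransferase gene SOT12 the lowest (-0.15, SE 0.14). Besides AT2G21640, the entry AT5G09570 lay beyond them (0.41, SE 0.40), with a value of 6.06 on the second epiRIL12 array against 4.84 and 4.49 on the others and 4.98, 4.45 and 4.72 in Col. Over the 27 named genes the adjusted p ran from 0.846 to 0.997, and over all 43 entries from 0.421 to 0.998.

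**Figure D5:**
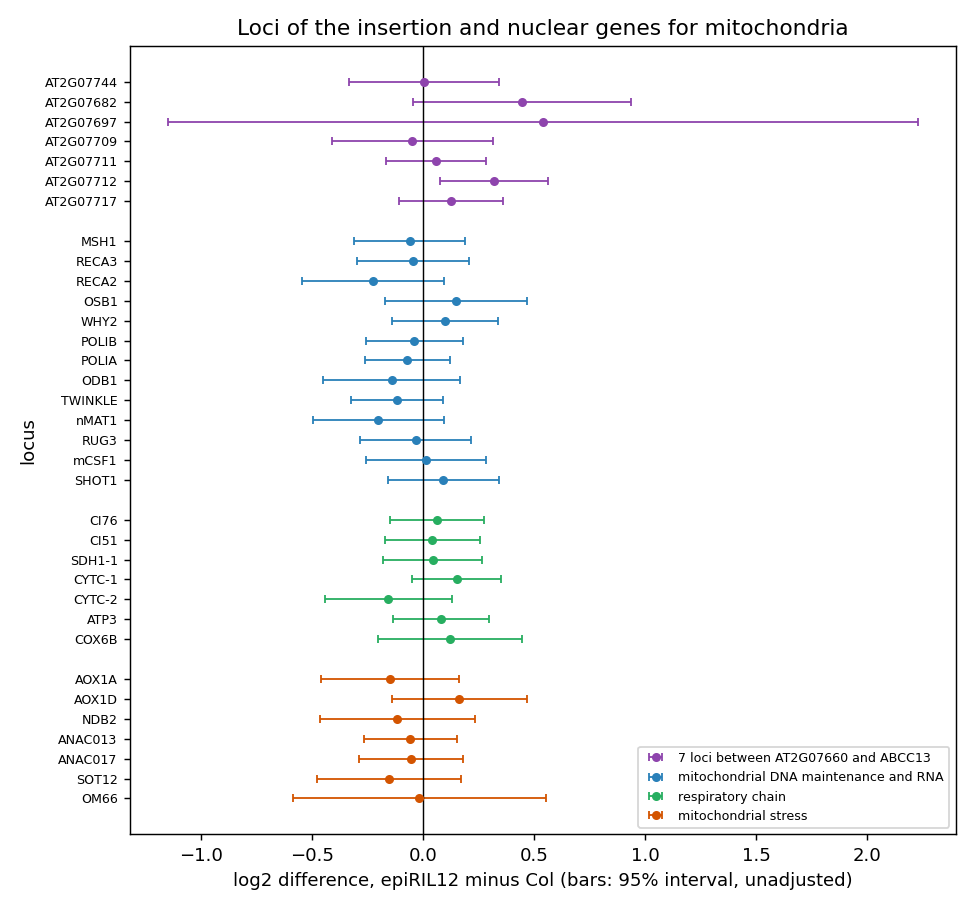
Log2 difference, epiRIL12 minus Col, with its unadjusted 95% interval (horizontal axis) for the 7 loci between AT2G07660 and ABCC13 and for the 27 named nuclear genes of 3 mitochondrial lists (vertical axis). All 27 intervals of the nuclear genes include 0, and AT2G07697 has the widest interval, from -1.15 to 2.23.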

How the data were processed

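The authors deposited 1 log2 value per locus and array (6 Affymetrix arrays); how they were corrected for background, normalized and summarized is not stated in the sources used. The authors also deposited a table of log2 differences and p-values, per the file headers, made by a test that is not stated there. The value table has no locus names, so both tables were joined by row order: Pearson's r over loci between both sets of differences was 0.967 in place and 0.167 shifted by 1 row, and 0.995 over the 21 loci with 250 on each side. This also set the direction, epiRIL12 minus Col.

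The test was the two-sided moderated test of limma 3.58.1 (R 4.3.3; functions lmFit and eBayes) on all 29670 loci with no filter, with Benjamini-Hochberg adjustment over all loci and a threshold of 0.05. In simulated data of this comparison with 29670 loci, changes of size 1 (log2) were recovered in 53.7%, of size 2 in 83.6% and of size 4 in 100% of cases. The number of arrays limits the precision. RefSeq names (TAIR10.1) matched 29521 loci. The table's coordinates are not printed, and no sequences were used here.

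The loci and lists were chosen with earlier results of these data known. Named loci were those that passed, the highest levels and the largest differences, 10 neighbours on each side, and list extremes. The 3 lists had 43 entries; 16 whose name RefSeq does not give are counted but given by locus only. Alternatives were a replicate block, quantile normalization, median centring, a filter on the lowest 25% of loci, a trended robust eBayes, a threshold of 0.10, the authors' table, each array left out, and, added later, both arrays numbered 3 left out. Tables and plots used Python 3.11.15, pandas 2.3.3 and matplotlib 3.10.9.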

Additional observations from a re-analysis of the deposited data

How the results depend on the processing

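The 3 calls at AT2G07660, AT2G07750 and AT2G07760 held under median centring, quantile normalization, the filter on the lowest 25% of loci, the trended robust eBayes and a threshold of 0.10. Their number was 0 under the replicate block (adjusted p = 0.0931, 0.118 and 0.0941), 0 by the p-values of the authors' deposited table after adjustment (0.317, 0.351 and 0.183), 0 without both arrays numbered 3 (0.0996, 0.310 and 0.178), and 0 to 2 with each array left out. The cause was not tested. The share of all loci that passed under the block or with arrays left out is not given here, so these counts cannot be set against it. Same-numbered arrays correlated in their deviations from the group means at -0.04, -0.07 and 0.13, so the numbers were not taken to pair samples. epiRIL12 array 1 correlated best with Col array 2 (0.11), epiRIL12 array 2 with Col array 1 (0.12) and array 3 with its own number. All other pairs were negative (-0.09 to -0.04), and a block on this crossed matching was not run. The arrays numbered 3 had the lowest lower quartiles, 4.71 in epiRIL12 and 4.78 in Col, against 4.85 to 4.90 on the others. Their SDs over all loci were the highest, 2.40 and 2.37 against 2.32. Whether samples shared a batch was not tested. AT2G07620 also lost its call under the block (adjusted p = 0.0553) and in the authors' deposited table (0.0667). No locus of the stretch passed under any of these 14 alternatives (0 of 7, or 0 of 6 under the 25% filter, which left out AT2G07744; 1 had an unadjusted p under 0.05 in limma with all arrays). The median log2 difference was 0.38 over the 14 loci that the 25% filter kept, which left out loci of low signal, and 0.09 to 0.14 with each array left out. Signs of small differences turned: AT2G07744 to -0.018 under median centring and AT2G07790 to 0.0018 under quantile normalization. In the authors' deposited table AT2G07720 stood at 0.019 and AT2G07740 at 0.014. Without both arrays numbered 3, AT2G07711 stood at -0.0195, AT2G07790 at 0.12, CYTC-2 (AT4G10040) at 0.0051 and AT2G09795, a neighbour on the high side, at 0.087. With each array left out, differences ran from -0.0082 to 0.089 for ABCC13 (AT2G07680), -0.17 to 0.062 for AT2G07709, -0.19 to 0.14 for AT2G07720, -0.14 to 0.093 for AT2G07744, -0.20 to 0.096 for AT2G07790, -0.078 to 1.70 for AT2G08986 and -0.052 to 0.73 for AT5G09570. Array values below the lower quartile, as at AT2G07744 and AT2G07780, can hide a fall, since no background level was given.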
